A study of Rattus norvegicus with 743 samples.

Results

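The genes described here are 8 textbook targets of the tumour suppressor p53, measured by RNA-seq in rat liver after repeated dosing with pharmaceuticals. They are Cdkn1a (ENSRNOG00000000521), Mdm2 (ENSRNOG00000006304), Ccng1 (ENSRNOG00000003256), Btg2 (ENSRNOG00000003300), Fas (ENSRNOG00000019142), Bax (ENSRNOG00000020876), Phlda3 (ENSRNOG00000009068) and Sesn1 (ENSRNOG00000000302). The genes were picked by name from the 32892 Ensembl gene rows of the deposited count table, with earlier results of these data known. The study treated rats with 95 agents, most of them marketed or discontinued medicines, once a day by repeated dosing, and took the liver a day after the last dose. Each treated group was set against the animals that had received the same vehicle in the same study and batch, which gave 97 comparisons, 73 of them with 4 treated and 4 vehicle animals. Unless stated otherwise the animals were males and dosing lasted 4 days. Of the agents described below, Han Wistar rats were given ritonavir (400 mg/kg), Cmpd Z (400 mg/kg), carbamazepine (600 mg/kg), fluoxetine (400 mg/kg), ticlopidine (600 mg/kg), flutamide (600 mg/kg), sitaxsentan (600 mg/kg), panadiplon (600 mg/kg), methimazole (600 mg/kg), chlorpropamide (600 mg/kg), amiodarone (600 mg/kg), zimelidine (400 mg/kg), clarithromycin (600 mg/kg), erythromycin (600 mg/kg), TCDD (0.00015 mg/kg), nefazodone (600 mg/kg), hydroxyzine (600 mg/kg), mibefradil (600 mg/kg), paroxetine (300 mg/kg), NB-360 (750 mg/kg, 5 days) and PCN (500 mg/kg, 7 days). Bardoxolone (10 mg/kg) and pyrazole (200 mg/kg) were given to Han Wistar rats of both sexes. Sprague Dawley rats were given azithromycin (600 mg/kg), nitrofurantoin (500 mg/kg), naproxen (400 mg/kg), propranolol (400 mg/kg), telcagepant (400 mg/kg), diclofenac (50 mg/kg), sudoxicam (100 mg/kg), lumiracoxib (400 mg/kg), telithromycin (600 mg/kg), trimethobenzamide (600 mg/kg), nabumetone (600 mg/kg), esomeprazole (600 mg/kg), atorvastatin (600 mg/kg), omeprazole (750 mg/kg) and, as females over 7 days, almorexant (750 mg/kg). Vehicle animals were rats of the same strain, sex and study dosed without the agent: propylene glycol for carbamazepine, propylene glycol with ethanol for ritonavir, corn oil with acetone for TCDD, and mostly methylcellulose in water for the others. The labels name no transgene or deletion in any group. Nearly every agent was given at 1 dose and sampled at 1 time, which limits each comparison to that dose and time.

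p53 is a transcription factor that is normally kept low by the ubiquitin ligase Mdm2, itself a p53 target, and that accumulates after DNA damage and other stress. Its targets act on the cell cycle (Cdkn1a, Ccng1, Btg2), promote cell death (the death receptor Fas and the mitochondrial pore protein Bax), restrain Akt or mTOR signalling (Phlda3, Sesn1) or switch p53 off again (Mdm2). In liver several of these genes also answer to other regulators: Cdkn1a is driven by circadian and glucocorticoid signals, Btg2 is an immediate early gene, and Mdm2 has a further promoter that p53 does not need.

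The sequences upstream of the members show which of them hold a match to the p53 response element close to the annotated start. Binding of p53 to such a match was not tested. Promoter windows of 300 bases, from 250 before to 50 after the annotated start, were taken from RefSeq on the rat build GRCr8 for 7 of the 8 members. They were searched on both strands for a pair of abutting decamers of the p53 response element with at most 2 mismatches and the conserved C and G of each decamer kept. Among the members, Cdkn1a and Ccng1 held such a 20-base site, each with 1 mismatch to the consensus. The Cdkn1a window lies at chr20:7150682-7150981 on the plus strand, and its site begins at position -201 from the start. The Ccng1 window lies at chr10:25684827-25685126 on the minus strand, and its site begins at position -242. Both windows are shown 5′ to 3′ because these genes are the members with a site in the window, and the capitals mark the site.
Cdkn1a: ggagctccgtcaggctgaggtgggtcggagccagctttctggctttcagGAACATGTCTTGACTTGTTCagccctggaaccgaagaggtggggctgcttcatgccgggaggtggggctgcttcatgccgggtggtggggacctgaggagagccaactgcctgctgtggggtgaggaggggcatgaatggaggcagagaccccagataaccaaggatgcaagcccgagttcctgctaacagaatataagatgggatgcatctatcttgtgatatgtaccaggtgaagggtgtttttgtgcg
Ccng1: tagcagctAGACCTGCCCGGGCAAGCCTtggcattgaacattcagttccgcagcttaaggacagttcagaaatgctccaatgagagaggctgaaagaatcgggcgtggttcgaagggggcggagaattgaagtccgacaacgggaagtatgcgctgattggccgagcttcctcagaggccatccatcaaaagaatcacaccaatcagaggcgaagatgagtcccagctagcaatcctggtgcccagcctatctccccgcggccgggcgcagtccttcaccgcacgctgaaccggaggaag
A site by this rule was present in 112 of 33469 rat promoter windows of the same length, which is 0.335%. A single exact decamer, a looser criterion, was present in 2671 windows (7.98%), among them that of Sesn1 with the sequence AAGCTTGTTT. The windows of Mdm2, Btg2, Fas and Phlda3 held no match by either criterion, which says only that these letters are not in this window. The p53 elements known for several of these genes lie in introns, outside such windows.

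The series held 743 libraries from 680 animals, with 0.312 M to 45.5 M estimated read counts per library (M, mega) and a median of 18.2 M. All 7 libraries under 10 M belonged to the study of PCN. The RNA integrity number, RIN, lay between 2.2 and 9.5 (median 8.4). Treated groups had the higher mean RIN in 71 comparisons and the lower in 25. A vehicle group served more than 1 treated group in 31 of the 97 comparisons, so results of such comparisons are not independent. The hepatocyte gene Alb had a median of 59777 FPKM in vehicle livers, beside a median of 0.414 FPKM for Mki67, a marker of dividing cells. Replicates were separate animals. Because whole liver was sequenced, a lower value can come from fewer cells of a type or from less RNA per cell, and these cannot be told apart.

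Among vehicle livers the members were all expressed at modest levels, and Cdkn1a was by far the most variable of them from animal to animal. On the FPKM scale, which corrects for transcript length, the medians over 220 male vehicle animals from 56 studies were 16.7 for Btg2, 12.9 for Bax, 12.0 for Cdkn1a, 10.7 for Phlda3, 8.82 for Ccng1, 7.37 for Mdm2, 6.55 for Sesn1 and 2.26 for Fas. Study by study, neighbours high in that order were not well separated: Btg2 exceeded Bax in 38 of 56 studies, Bax exceeded Cdkn1a in 28, and Cdkn1a exceeded Phlda3 in 31. Lower in the order, Phlda3 exceeded Ccng1 in 46 studies, Ccng1 exceeded Mdm2 in 50, Mdm2 exceeded Sesn1 in 38, and Sesn1 exceeded Fas in 56 of 56.

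Within vehicle groups, the spread of Cdkn1a stood out. Its level in CPM, counts scaled to the library's TMM-adjusted size, ran from 0.283 to 73.7 over 310 vehicle animals, with a median of 18.4, and the standard deviation within groups was 1.13 on the log2(CPM + 0.5) scale. The same SD was 0.59 for Btg2, 0.45 for Phlda3, 0.39 for Fas, 0.23 for Bax, 0.22 for Ccng1, 0.22 for Sesn1 and 0.20 for Mdm2. A change in Cdkn1a therefore had to be several times larger than one in Mdm2 to stand clear of the animals' own spread.

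The vehicle level of 5 of the 8 members also differed between the strains, most of all that of Cdkn1a and Btg2. Cdkn1a averaged 21.0 ± 3.98 FPKM (SD, n = 24 studies) in Han Wistar and 7.14 ± 5.27 FPKM (SD, n = 32 studies) in Sprague Dawley vehicle livers. By study mean CPM, 28 of the 32 Sprague Dawley studies lay below all Han Wistar studies. The log2 difference, Han Wistar minus Sprague Dawley, was 1.58 ± 0.22 (SE, edgeR quasi-likelihood test with Benjamini-Hochberg adjustment, adjusted p = 2.93e-08). Btg2 averaged 30.2 ± 9.46 against 13.3 ± 4.54 FPKM, 31 of 32 Sprague Dawley studies lay below all Han Wistar studies in CPM, and the log2 difference was 1.26 ± 0.12 (adjusted p = 1.6e-13). Phlda3, an Akt inhibitor, was also higher in Han Wistar livers by 0.42 (adjusted p = 0.000434), and the mTORC1 restrainer Sesn1 by 0.19 (adjusted p = 0.00161). Mdm2 went the other way, at 6.76 ± 0.60 against 8.02 ± 0.74 FPKM and a log2 difference of -0.18 (adjusted p = 0.000104). Fas, Ccng1 and Bax did not pass the test, with differences of -0.10, 0.02 and 0.01. In the same test 51.7% of all genes passed, so the 5 members of 8 are to be read against that share. Each study used 1 strain, so strain cannot be told apart from other traits of the studies that went with it.

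**Figure D1:**
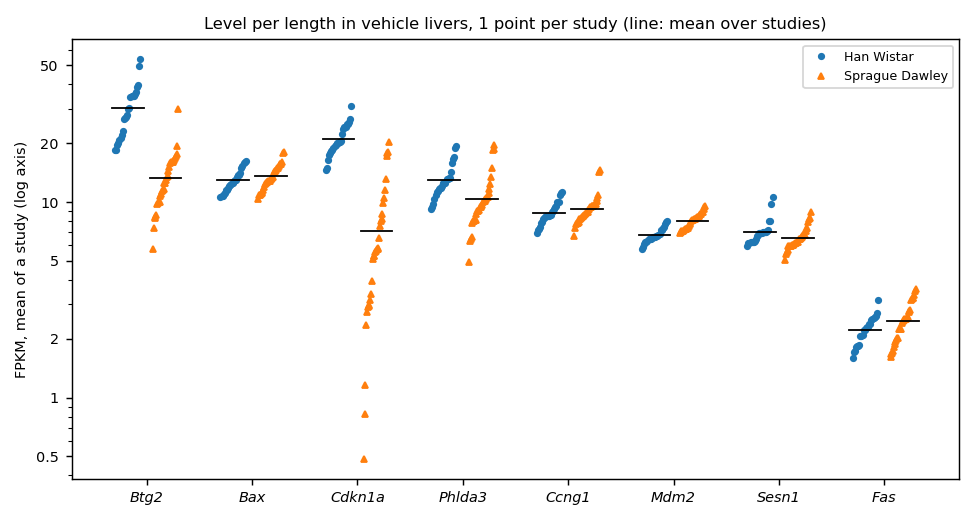
FPKM (log axis) of the 8 p53 targets in male vehicle livers, with 1 point per study mean, Han Wistar as circles, Sprague Dawley as triangles and a line at the mean over studies. Cdkn1a lies mostly higher in Han Wistar (mean 21.0) than in Sprague Dawley (7.14) studies, as does Btg2, whereas the points of Ccng1, Bax and Fas are mixed.

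In most comparisons no member was called, and many members were seldom called together. A gene is called higher or lower here where its adjusted p was under 0.05 in edgeR's quasi-likelihood test, with the Benjamini-Hochberg adjustment over all genes tested. Of 774 member tests, 66 (8.53%) were called higher and 42 (5.43%) lower, beside a background of 4.97% higher and 4.55% lower over all genes in all comparisons. In 54 of the 97 comparisons no member was called, in 18 exactly 1, in 8 there were 2, in 6 there were 3, in 3 there were 4, in 4 there were 5 and in 4 there were 6. The highest number in any comparison was 6. Where no member was called, the share of all genes called higher ran from 0% (as for erythromycin) to 8.71% (clofibrate, 600 mg/kg, Sprague Dawley). A gene not called is not thereby unchanged. Without a call, Cdkn1a had log2 fold changes of 3.01 after valsartan (750 mg/kg, Sprague Dawley) and -2.42 after ximelagatran (600 mg/kg, Han Wistar). At least 3 members were called higher in 7 comparisons, and at least 3 lower in 4.

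Those 7 were azithromycin with 6 members called higher, Cmpd Z with 5, fluoxetine and naproxen with 4 each, and ritonavir, nitrofurantoin and sitaxsentan with 3 each. The background share of genes called higher was 24.8% for azithromycin, 20.9% for Cmpd Z, 23.7% for fluoxetine, 18.8% for naproxen, 22.7% for ritonavir, 7.12% for nitrofurantoin and 15.5% for sitaxsentan. The 4 with members lower were carbamazepine and ticlopidine with 4 each, and ritonavir and flutamide with 3 each. There the background share of genes called lower was 19.4%, 25.1%, 19% and 24.6% in that order. Each of these counts, out of 8 members, lies above its background share. The 6 of 8 and 5 of 8 lie well above it, whereas 3 of 8 in ritonavir or flutamide does not lie far from it. The members were picked with earlier results of these data known and are partly correlated, and the set was not tested. With RIN as a covariate there were 31 calls higher and 19 lower. Of the 108 original calls, 49 were kept with that covariate and 3 had an estimate of reversed sign. Whichever single animal was left out, 33 calls higher and 21 lower were kept, a check that could not be run for the 5 calls of naproxen with its 2 treated animals.

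**Figure D2:**
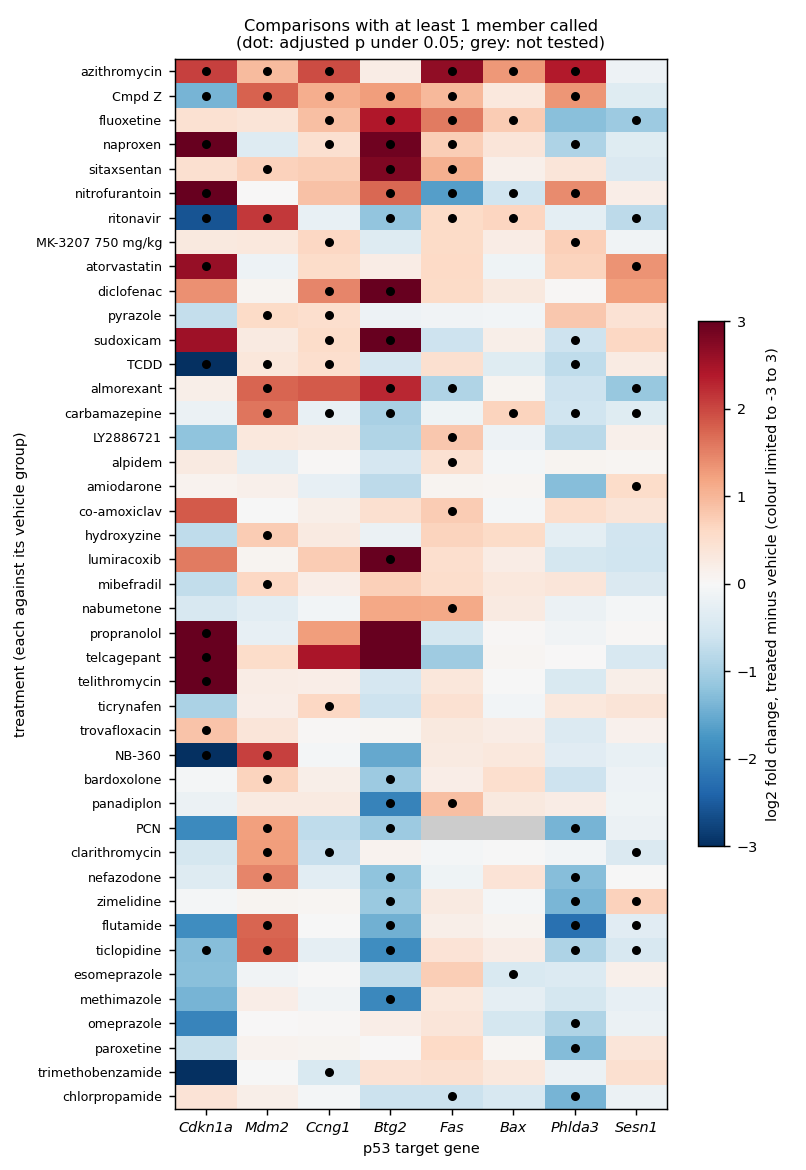
Log2 fold change, treated minus vehicle, of the 8 members (columns) in each of the 43 comparisons with at least 1 member called (rows), coloured from blue (lower) to red (higher), limited at 3 in both directions, with a dot where the adjusted p was under 0.05 and grey where not tested. Azithromycin, in the top row, has 6 dots in red cells, and the 17 dots of Mdm2 are all in red cells.

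By member, the direction of the calls differed. Over all genes in all comparisons, 4.97% of tests were called higher and 4.55% lower. Near or below these shares were the calls of Bax in both directions (4.17% and 2.08%) and of Cdkn1a lower (5.15%). The same held for Phlda3 higher (4.12%), Sesn1 higher (3.09%), Fas lower (3.1%) and Ccng1 lower (3.09%). Mdm2 had 17 calls higher among 97 comparisons and 0 lower (3 comparisons at an unadjusted p under 0.05 by edgeR, 0 by DESeq2). For Fas there were 11 calls higher and 3 lower in 96 tests, for Ccng1 10 and 3 in 97, and for Bax 4 and 2 in 96. Cdkn1a had 8 calls higher and 5 lower, and Btg2 had 9 and 10. Phlda3, with 4 higher and 12 lower, and Sesn1, with 3 higher and 7 lower, were called lower more often than higher. These counts moved with the processing, over the alternatives from 8 to 19 for Mdm2 higher (0 to 1 lower), 1 to 9 for Cdkn1a higher, 3 to 16 for Ccng1 higher, 4 to 14 for Fas higher, 5 to 14 for Btg2 lower and 3 to 16 for Phlda3 lower. The range of log2 fold changes was narrowest for Bax (-0.59 to 1.29) and widest for Cdkn1a (-4.49 to 5.23).

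Azithromycin, a macrolide antibiotic, was the treatment in which most members rose, with 6 of 8 higher beside a background of 24.8%. Cdkn1a, Mdm2, Ccng1, Fas, Bax and Phlda3 were all higher in each of the 4 treated animals than in each of the 4 vehicle animals. The median log2 fold change of the 8 members was 1.62, beside 0.02 over all genes. No member was lower (0 by edgeR with adjustment, 0 at an unadjusted p under 0.05, 0 by DESeq2).

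Fas, the death receptor, changed most, from 6.70, 3.09, 4.18 and 5.53 CPM in the vehicle animals to 28.3, 29.0, 28.6 and 35.8 CPM in the azithromycin animals. The log2 fold change was 2.65 ± 0.21 (SE, n = 4 and 4, edgeR adjusted p = 1.28e-05). Bax, the pore-forming effector of apoptosis, went from 13.4, 13.2, 14.2 and 16.0 CPM to 40.1, 29.6, 33.3 and 35.8 CPM. All treated animals exceeded all vehicle animals, and the log2 fold change was 1.29 ± 0.11 (edgeR adjusted p = 2.16e-05).

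Phlda3, which competes with Akt for membrane lipids, stood at 11.8, 7.24, 7.88 and 6.34 CPM in vehicle and 47.8, 37.7, 42.6 and 46.3 CPM in azithromycin animals. Its log2 fold change was 2.39 ± 0.18 (edgeR adjusted p = 1.08e-05). Ccng1, which encodes cyclin G1 and holds a match to the p53 site in the window printed above, stood at 27.9, 27.8, 28.0 and 30.5 CPM. It rose to 114, 86.0, 115 and 127 CPM. The lowest treated animal was several times above the highest vehicle animal, and the log2 fold change was 1.95 ± 0.12 (edgeR adjusted p = 3.62e-06).

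Cdkn1a, which encodes the cyclin-dependent kinase inhibitor p21, had uneven vehicle values of 23.1, 27.5, 3.43 and 10.3 CPM. The azithromycin animals had 97.2, 85.8, 43.8 and 40.7 CPM, so the groups did not overlap although the vehicle animals spread widely. The log2 fold change was 2.05 ± 0.61 (edgeR adjusted p = 0.0268). That call was lost without vehicle animal 4, treated animal 1 or treated animal 2, where the adjusted p was 0.0604 to 0.0715, and without the filter on low counts (0.0600).

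Mdm2 rose less than the other called members, from 22.1, 23.8, 21.2 and 25.1 CPM to 37.9, 33.4, 49.6 and 57.8 CPM. The log2 fold change was 0.95 ± 0.16 (edgeR adjusted p = 0.00114). Btg2 was not called, at 41.6, 43.0, 60.6 and 54.0 CPM in vehicle and 105, 45.7, 40.6 and 42.8 CPM in treated animals, where 1 treated animal alone was high. Sesn1 was not called either (log2 fold change -0.15 ± 0.23, edgeR adjusted p = 0.616). 

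Several other gene groups moved in the same azithromycin livers. Of 25 cell cycle genes tested, 22 were higher, and their summed level ran from 74.5 to 96.5 CPM in vehicle and 154 to 318 CPM in treated animals. Mki67 had a log2 fold change of 2.17 (edgeR adjusted p = 0.00022). Of 11 macrophage markers 3 were higher and 2 lower (summed 639 to 736 CPM against 587 to 1057 CPM), 8 of 9 endothelial markers were lower (341 to 377 against 90.5 to 174 CPM), and 8 of 10 hepatocyte markers were lower. Whether these shifts take part in the members' rise was not tested. Of 13 clock genes tested, 0 were higher and 9 lower. Among them, Arntl, the clock activator, and Dbp, a clock output gene, run in opposite phase. Their log2 fold changes were 1.19 (edgeR adjusted p = 0.14) and -3.34 (edgeR adjusted p = 0.0085).

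**Figure D3:**
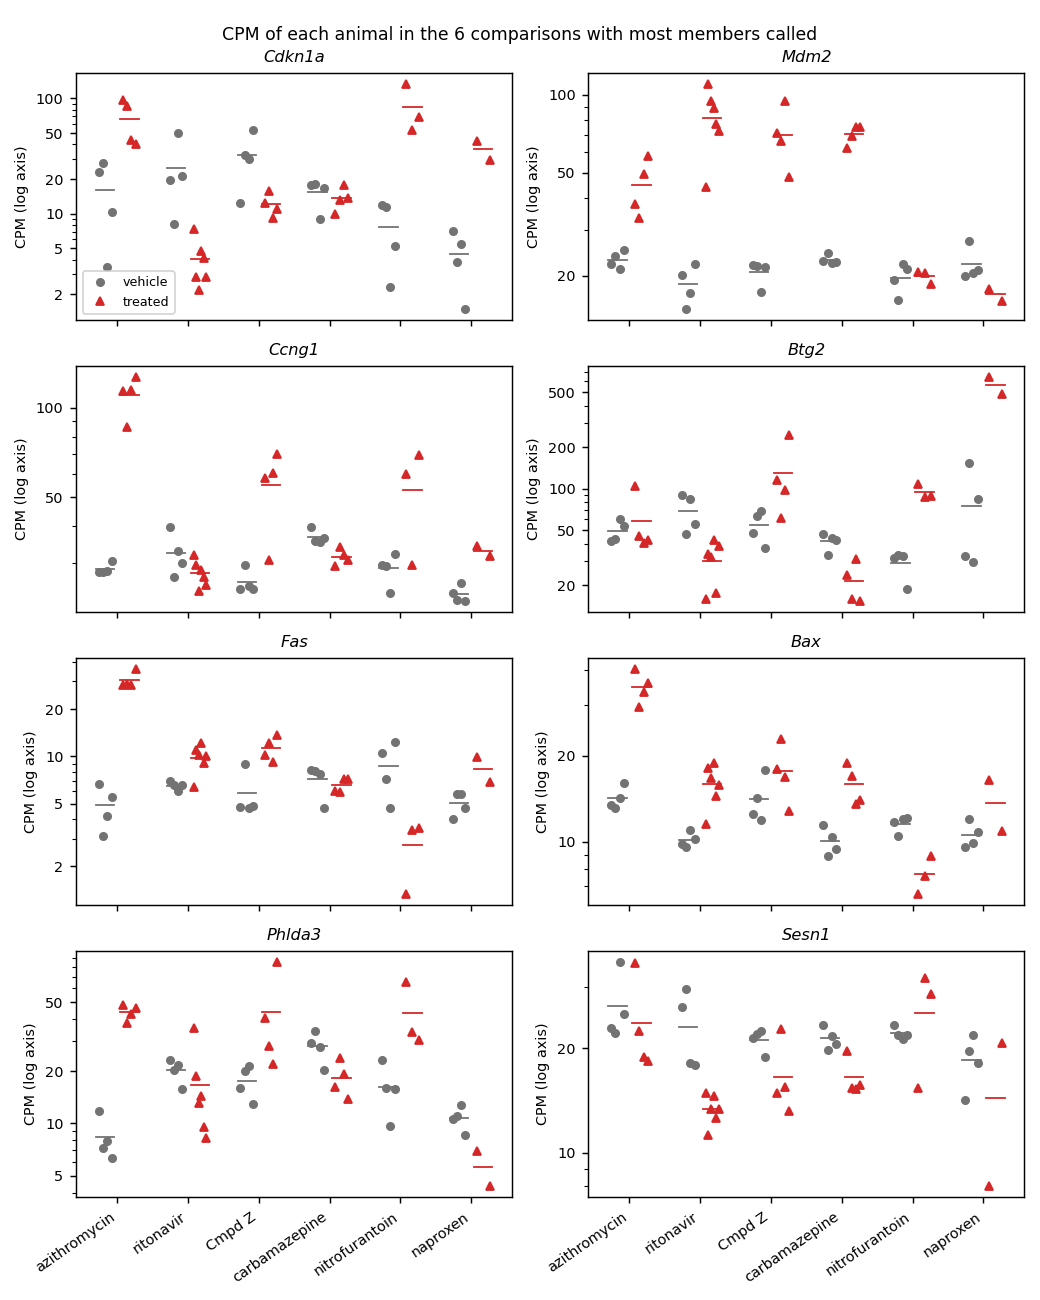
CPM (log axis) of each animal, 1 panel per member, in the 6 comparisons with most members called, with vehicle animals as grey circles, treated animals as red triangles and a line at each group mean. After azithromycin the treated points of 6 members lie above all vehicle points, and after ritonavir and carbamazepine those of Mdm2 and Bax lie above and those of Btg2 and Sesn1 below or at the lower edge of the vehicle points.

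Cmpd Z, an agent named only by its code, also called 5 members higher, beside a background of 20.9%, and 1 lower, beside 18.3%. Mdm2 went from 21.9, 21.8, 17.4 and 21.6 CPM to 71.4, 66.1, 94.6 and 48.3 CPM, with no overlap, a log2 fold change of 1.76 ± 0.19 and an edgeR adjusted p of 7.32e-05. Ccng1 stood at 24.4, 29.5, 25.1 and 24.4 CPM in vehicle and 58.0, 30.8, 60.2 and 69.9 CPM in treated animals. Treated animal 2 lay just above the vehicle range, and the log2 fold change was 1.08 ± 0.22 (edgeR adjusted p = 0.00334).

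Fas rose in the Cmpd Z animals by 0.96 ± 0.24 on the log2 scale (edgeR adjusted p = 0.00858), from 4.77, 8.93, 4.69 and 4.86 CPM to 10.2, 12.2, 9.25 and 13.7 CPM. Phlda3 rose by 1.32 ± 0.41 (edgeR adjusted p = 0.0352), from 16.0, 20.0, 21.4 and 13.0 CPM to 40.3, 28.0, 22.1 and 85.4 CPM, where treated animal 3 was close to the vehicle range. Btg2 stood at 47.9, 63.8, 69.2 and 37.4 CPM and at 115, 61.4, 98.5 and 246 CPM. Its groups overlapped through treated animal 2, and the log2 fold change was 1.25 ± 0.41 (edgeR adjusted p = 0.0413). The Phlda3 call was lost without vehicle animal 1, 2 or 4 or treated animal 1 (adjusted p = 0.0566 to 0.0869), and the Btg2 call without vehicle animal 1, 2 or 4 or treated animal 1, 3 or 4 (adjusted p = 0.0553 to 0.0948). Both were lost with RIN as a covariate (0.0843 and 0.0930).

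Cdkn1a fell in the same Cmpd Z animals in which 5 other targets rose. Vehicle animals had 12.3, 32.2, 30.0 and 53.7 CPM and treated animals 12.5, 15.7, 9.28 and 11.0 CPM, a log2 fold change of -1.40 ± 0.39 (edgeR adjusted p = 0.0204). The groups overlapped, because 1 vehicle animal was as low as the treated ones, and the call was lost without treated animal 3 or 4 (adjusted p = 0.0547 to 0.0603) and in 1 fit across all animals (0.109). Bax and Sesn1 were not called, at log2 fold changes of 0.32 ± 0.19 and -0.36 ± 0.17. Of 26 cell cycle genes 18 were higher in these livers (summed 64.0 to 84.0 CPM against 253 to 503 CPM), and of 10 hepatocyte markers 6 were lower. Their part in the members' changes was not tested.

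Ritonavir, an HIV protease inhibitor, split the members into 3 called higher (background 22.7%) and 3 called lower (background 19%). Mdm2 rose from 20.1, 14.9, 17.1 and 22.2 CPM in the vehicle animals to between 43.8 and 109.5 CPM in the 6 treated animals, with a median of 82.8 CPM. No animal overlapped, and the log2 fold change of 2.12 ± 0.24 was the largest of Mdm2 in the series (edgeR adjusted p = 4.85e-05). Bax stood at 9.83, 9.56, 11.0 and 10.2 CPM in vehicle animals and from 11.5 to 18.8 CPM, with a median of 16.3 CPM, in treated animals. It rose by 0.65 ± 0.13 (edgeR adjusted p = 0.00184). Fas rose by 0.59 ± 0.15 (edgeR adjusted p = 0.00929), from 6.95, 6.55, 5.98 and 6.56 CPM to between 6.39 and 12.1 CPM with a median of 10.1 CPM, and 1 treated animal lay within the vehicle range.

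Cdkn1a, Btg2 and Sesn1 fell after ritonavir. Cdkn1a stood at 19.5, 8.19, 50.2 and 21.2 CPM in vehicle animals and between 2.17 and 7.43 CPM, median 3.51 CPM, in treated animals, a log2 fold change of -2.60 ± 0.49 (edgeR adjusted p = 0.00223). Btg2 stood at 90.4, 47.0, 83.7 and 55.2 CPM and fell to between 16.1 and 42.5 CPM, median 33.0 CPM, by -1.19 ± 0.31 (edgeR adjusted p = 0.0106). Sesn1, a stress-responsive restrainer of mTORC1, went from 26.3, 29.5, 18.2 and 17.9 CPM to between 11.2 and 14.9 CPM with a median of 13.3 CPM, by -0.79 ± 0.15 (edgeR adjusted p = 0.00104). In each of these 3 genes every treated animal was below every vehicle animal. Ccng1 and Phlda3 were not called (log2 fold changes -0.22 ± 0.11 and -0.29 ± 0.37). Without treated animal 1, Phlda3 was called lower, at -0.69 (edgeR adjusted p = 0.0297).

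Carbamazepine, an anticonvulsant, gave a similar split, with 2 members higher (background 21.3%) and 4 lower (background 19.4%). Mdm2 went from 22.8, 24.4, 22.4 and 22.7 CPM to 62.2, 69.2, 74.7 and 74.98 CPM. Both groups were tight, and the log2 fold change of 1.61 ± 0.08 had the smallest adjusted p of any member in any comparison (edgeR, 3.74e-07). Bax went from 11.4, 8.89, 10.4 and 9.44 CPM to 18.8, 17.0, 13.6 and 14.0 CPM, a rise of 0.66 ± 0.13 (edgeR adjusted p = 0.00246).

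The 4 members called lower after carbamazepine moved less. Btg2 fell from 47.4, 33.3, 44.1 and 42.8 CPM to 23.7, 16.1, 30.9 and 15.4 CPM, by -0.96 ± 0.23 on the log2 scale (edgeR adjusted p = 0.00884), without overlap. Ccng1 went from 39.5, 35.4, 35.3 and 36.5 CPM to 29.3, 33.9, 31.9 and 30.6 CPM (-0.22 ± 0.08, edgeR adjusted p = 0.0402), and Sesn1 from 23.3, 19.7, 21.7 and 20.5 CPM to 19.7, 15.4, 15.2 and 15.6 CPM (-0.37 ± 0.11, edgeR adjusted p = 0.0168). Phlda3 had 29.3, 33.9, 27.6 and 20.2 CPM against 16.3, 24.0, 19.2 and 13.9 CPM, where the groups overlapped (-0.60 ± 0.19, edgeR adjusted p = 0.0311). The Ccng1 call was lost without vehicle animal 1, 3 or 4 or treated animal 1, 3 or 4 (adjusted p = 0.0557 to 0.105), that of Phlda3 without vehicle animal 1, 2 or 3 or treated animal 1, 3 or 4 (0.0564 to 0.0802), and that of Sesn1 without treated animal 2 or 4 (0.0514 to 0.0531). All carbamazepine calls but that of Mdm2 were lost with RIN as a covariate (adjusted p = 0.444 to 0.894). Cdkn1a (-0.18 ± 0.24) and Fas (-0.12 ± 0.18) were not called. All 11 macrophage markers tested were lower in the same livers, at a summed 492.9 to 634 CPM in vehicle and 282 to 377 CPM in treated animals, and 8 of 10 hepatocyte markers were lower; their part was not tested.

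Nitrofurantoin, a urinary antiseptic that redox-cycles in cells, called 3 members higher (background 7.12%) and 2 lower (background 5.45%). Cdkn1a rose from 11.9, 11.5, 2.31 and 5.29 CPM to 132, 53.4 and 69.3 CPM in the 3 treated animals, a log2 fold change of 3.46 ± 0.58 (edgeR adjusted p = 0.0151). Btg2 rose from 31.4, 33.0, 32.4 and 18.7 CPM to 109, 87.1 and 88.9 CPM, by 1.72 ± 0.21 (edgeR adjusted p = 0.0037). In both genes all treated animals lay above all vehicle animals. Phlda3 rose from 23.1, 16.0, 9.62 and 15.8 CPM to 65.6, 33.8 and 30.3 CPM, by 1.42 ± 0.34 (edgeR adjusted p = 0.0347).

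The death-promoting members went the other way after nitrofurantoin. Fas fell from 10.5, 7.13, 4.67 and 12.3 CPM to 1.34, 3.38 and 3.51 CPM, by -1.65 ± 0.43 (edgeR adjusted p = 0.0418), its lowest value in the series. Bax fell from 11.7, 10.5, 12.0 and 12.1 CPM to 6.58, 7.57 and 8.88 CPM, by -0.59 ± 0.16 (edgeR adjusted p = 0.0466). Mdm2 had a log2 fold change of 0.01 ± 0.15 (edgeR adjusted p = 0.96), and Ccng1, at 59.9, 29.5 and 69.3 CPM against 23.8 to 32.1 CPM, was not called (0.88 ± 0.27, edgeR adjusted p = 0.0616) but passed without treated animal 2 (1.19, adjusted p = 0.00976). The calls of Bax, Fas and Phlda3 were each lost when single animals were left out. That happened for Bax without vehicle animal 1, 2, 3 or 4 or treated animal 1 or 2 (adjusted p = 0.0794 to 0.114), for Fas without vehicle animal 1, 2 or 4 or treated animal 1, 2 or 3 (0.0524 to 0.0994), and for Phlda3 without vehicle animal 2, 3 or 4 or treated animal 1 (0.0667 to 0.0857). Of 8 lymphocyte markers 3 were lower in these livers (summed 21.1 to 40.3 CPM against 8.42 to 15.9 CPM), as were 2 of 11 macrophage markers. Mki67 was lower as well (-2.76, edgeR adjusted p = 0.029). None of the 5 nitrofurantoin calls passed with RIN as a covariate (edgeR adjusted p = 0.157 for Cdkn1a, 0.0834 for Btg2, 0.216 for Phlda3, 0.259 for Fas and 0.285 for Bax).

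Naproxen, a nonsteroidal anti-inflammatory drug (NSAID), called 4 members higher (background 18.8%) and 1 lower (background 18.4%), from 2 treated animals. Cdkn1a had 7.05, 3.82, 5.46 and 1.50 CPM in vehicle animals and 43.1 and 29.3 CPM in treated animals (log2 fold change 3.03 ± 0.50, edgeR adjusted p = 0.00433). Btg2 had 32.5, 153, 29.8 and 83.7 CPM and then 646 and 485 CPM (2.92 ± 0.68, edgeR adjusted p = 0.0193). Both inhibitors of proliferation were far above the vehicle range in both animals. Ccng1 rose from 23.7, 22.4, 25.5 and 22.3 CPM to 34.2 and 31.6 CPM (0.49 ± 0.12, edgeR adjusted p = 0.0165), and Fas from 3.98, 5.77, 5.76 and 4.68 CPM to 9.83 and 6.86 CPM (0.73 ± 0.23, edgeR adjusted p = 0.0401). Phlda3 fell from 10.6, 11.0, 12.8 and 8.61 CPM to 6.91 and 4.36 CPM (-0.93 ± 0.25, edgeR adjusted p = 0.0192). The calls of Btg2, Fas and Phlda3 were lost with RIN as a covariate (edgeR adjusted p = 0.0734, 0.0943 and 0.107). Mdm2 was below all vehicle animals at 17.8 and 16.0 CPM against 19.9 to 27.2 CPM, but was not called (-0.39 ± 0.17, edgeR adjusted p = 0.107). The neutrophil markers summed to 8.49 to 9.79 CPM in vehicle and 7895 to 8600 CPM in treated animals. All 6 that were tested were higher, but markers so low in vehicle can pass the filter on low counts through the treated animals alone. The part of these markers in the members' changes was not tested.

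The following paragraphs take the members in turn, by role. Mdm2, the ligase that marks p53 for destruction, was the member called higher most often, and 69 of its 97 point estimates lay above 0. In 16 of the 17 calls every treated animal exceeded every vehicle animal, sitaxsentan being the exception. Such separation was common among calls higher of other members, with 10 of 11 for Fas, 9 of 10 for Ccng1 and 7 of 9 for Btg2. For Mdm2 it also occurred in 10 comparisons without a call. It therefore adds little to a call, and its share over all genes was not worked out. After NB-360, a BACE1 inhibitor, it went from 26.8, 27.9, 23.7 and 21.9 CPM to 69.0, 141, 99.3 and 109 CPM, a log2 fold change of 2.06 ± 0.19 (edgeR adjusted p = 4.36e-05). After the platelet inhibitor ticlopidine it went from 18.4, 17.3, 22.2 and 19.3 CPM to 54.1, 75.2, 51.6 and 86.3 CPM (1.79 ± 0.17, edgeR adjusted p = 4.12e-05). These lie next to ritonavir at the top of the range, and none of the 3 overlapped with its vehicle group. The background of genes called higher was 13.8% for NB-360 and 24.1% for ticlopidine.

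The remaining Mdm2 calls covered several drug classes. Means rose from 18.9 ± 2.63 to 63.7 ± 11.1 CPM (SD, n = 4 and 4) after flutamide, with almorexant from 25.3 ± 3.07 to 85.1 ± 14.2 CPM, and from 17.6 to 41.8 CPM after clarithromycin. The log2 fold changes were 1.75, 1.75 and 1.25, beside a background of 23.4%, 18.5% and 10.1% of genes called higher. The others were nefazodone at 1.47, PCN (a rodent PXR agonist) at 1.22, hydroxyzine at 0.76, sitaxsentan at 0.70, bardoxolone at 0.67, mibefradil at 0.61, pyrazole at 0.56 and TCDD at 0.34. The call of bardoxolone was kept without any single animal, and 5 others of the smaller calls were not. That of hydroxyzine was lost without vehicle animal 1, 2 or 4 (edgeR adjusted p up to 0.0538), and that of TCDD without vehicle animal 2 or 4 or treated animal 3 (up to 0.0526). That of sitaxsentan was lost without vehicle animal 1, 2 or 3 or treated animal 1, 3 or 4 (up to 0.0953), that of mibefradil without any 1 vehicle animal or treated animal 1 or 3 (up to 0.149), and that of pyrazole without any 1 vehicle animal or treated animal 1 or 2 (up to 0.222). With RIN as a covariate the calls of NB-360 (1.69, edgeR adjusted p = 0.0640), flutamide (0.98, 0.151), nefazodone (0.76, 0.799) and all of hydroxyzine, sitaxsentan, mibefradil, pyrazole, TCDD and bardoxolone were lost, and bardoxolone turned in sign (-0.09). In several of these treatments other members were called lower beside Mdm2: Cdkn1a after NB-360 and TCDD, Phlda3 after flutamide, Btg2 after nefazodone, and Ccng1 and Sesn1 after clarithromycin. Each was kept without any single animal, but with RIN as a covariate those of Cdkn1a after TCDD, Phlda3 after flutamide and Btg2 after nefazodone (edgeR adjusted p = 0.127, 0.117 and 0.427) were lost. In 1 fit across all animals (limma) those of Cdkn1a after TCDD, Btg2 after nefazodone, and Ccng1 and Sesn1 after clarithromycin were lost (adjusted p = 0.0981, 0.129, 0.05001 and 0.234). Other calls lower beside Mdm2 were lost on leaving out some single animals. These were Btg2 and Sesn1 after flutamide, Phlda3 after nefazodone, Cdkn1a after ticlopidine, Btg2 after bardoxolone, and Btg2 and Phlda3 after PCN. Kept without any single animal were Fas and Sesn1 after almorexant, Phlda3 after TCDD, and Btg2, Phlda3 and Sesn1 after ticlopidine.

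**Figure D4:**
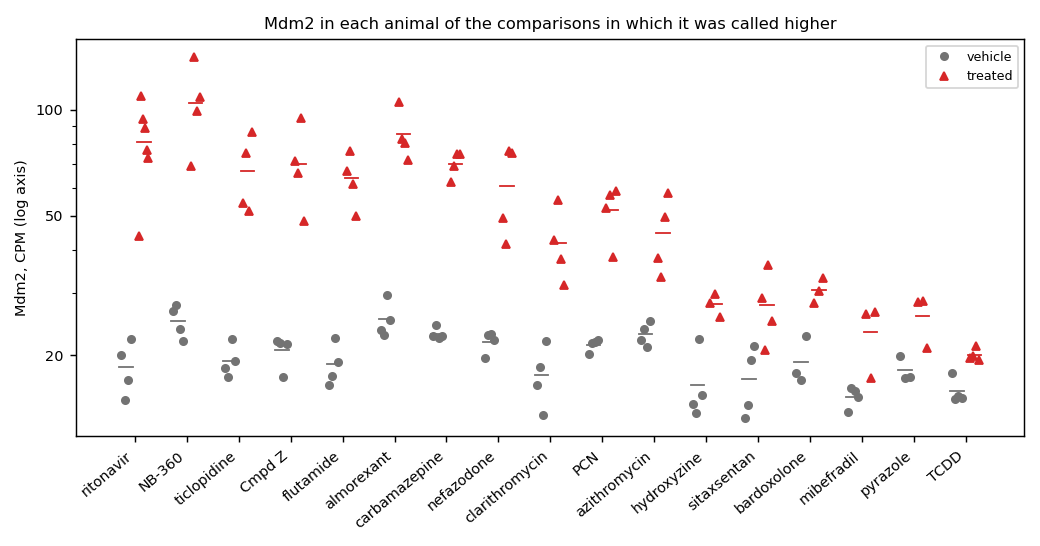
CPM of Mdm2 (log axis) in each animal of the 17 comparisons that called it higher, ordered by log2 fold change, with vehicle animals as grey circles, treated animals as red triangles and a line at each group mean. Treated and vehicle points are apart in 16 comparisons, and sitaxsentan is the one in which they overlap.

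Cdkn1a had the largest changes of any member in both directions. After the beta blocker propranolol it went from 1.08, 0.995, 2.29 and 1.20 CPM to 83.7, 60.6 and 13.0 CPM, a log2 fold change of 5.23 ± 0.66 (n = 3 and 4, edgeR adjusted p = 0.0188). After telcagepant, a CGRP receptor antagonist, it went from 4.26, 0.737, 6.82 and 1.31 CPM to 23.2, 90.1, 15.4 and 20.9 CPM (3.50 ± 0.82, edgeR adjusted p = 0.0475). Few genes were called higher in either, 1.37% after propranolol and 2.33% after telcagepant. Treated animals were above all vehicle animals in both, but varied by several fold among themselves. The propranolol call was lost without vehicle animal 1 or 4 (adjusted p = 0.0659 to 0.0702), and the telcagepant call without any single vehicle animal or without treated animal 2 (0.0896 to 0.144). Both were lost with RIN as a covariate (adjusted p = 0.133 and 0.313).

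Cdkn1a fell furthest after NB-360, from 30.1, 24.9, 28.6 and 39.4 CPM to 1.20, 0.371, 2.87 and 1.05 CPM (-4.49 ± 0.48, edgeR adjusted p = 0.000291). After TCDD, a dioxin that activates the aryl hydrocarbon receptor, it fell from 12.2, 14.2, 4.70 and 6.48 CPM to 1.42, 0.517, 0.875 and 0.678 CPM (-3.47 ± 0.45, edgeR adjusted p = 0.00128). Neither pair of groups overlapped, and both calls were kept without any single animal. The TCDD call was lost with RIN as a covariate (-3.18, edgeR adjusted p = 0.127) and in 1 fit across all animals (-3.48, limma adjusted p = 0.0981). The background of genes called lower was 12.7% for NB-360 and 12.1% for TCDD.

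Of the clock genes, Arntl and Dbp were set beside Cdkn1a. Arntl, the clock activator, had a log2 fold change of 4.02 after propranolol (edgeR adjusted p = 0.0098), 1.65 after telcagepant (adjusted p = 0.29) and 0.74 after nitrofurantoin (adjusted p = 0.57). It had -0.85 after NB-360 (edgeR adjusted p = 0.032) and -3.83 after TCDD (edgeR adjusted p = 9.2e-05). With ritonavir, where Cdkn1a had -2.60, Arntl had -0.50. Of the whole list of clock genes, 3 were higher and 2 lower of 14 after propranolol, and 1 and 0 of 14 after telcagepant and after nitrofurantoin. The counts were 2 and 2 of 13 after NB-360, 7 and 3 of 14 after TCDD and 1 and 5 of 13 after ritonavir. Over the 97 comparisons, the log2 fold changes of Cdkn1a and Arntl had a Pearson r of 0.74, and those of Cdkn1a and Dbp, a clock output gene, had r = -0.72. Among 310 vehicle animals, as deviations from their own group means, the same r was 0.65 and -0.68. The hour of death was not in the labels used here, and its part in the values of Cdkn1a was not tested.

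Ccng1 was called in 13 comparisons. Beside azithromycin and Cmpd Z, its largest rise without overlap was after the NSAID diclofenac, from 29.8, 33.1, 35.4 and 29.9 CPM to 95.8, 47.6 and 124 CPM (1.47 ± 0.28, edgeR adjusted p = 0.00721). After clarithromycin it fell from 31.0, 42.0, 26.6 and 41.0 CPM to 20.3, 20.8, 25.7 and 20.8 CPM (-0.68 ± 0.15, edgeR adjusted p = 0.0147). After the antiemetic trimethobenzamide it fell from 29.7, 28.8, 28.3 and 28.9 CPM to 25.5, 17.6, 20.8 and 19.9 CPM (-0.46 ± 0.11, edgeR adjusted p = 0.0299). The background was 15.6% higher for diclofenac, 8.76% lower for clarithromycin and 6.18% lower for trimethobenzamide. The falls were small beside the rises, and the trimethobenzamide call was lost without any 1 vehicle animal or without treated animal 2, 3 or 4 (adjusted p = 0.0538 to 0.0861), and in 1 fit across all animals (0.286). The highest point estimate of Ccng1, 2.45 after telcagepant, came from animals spread between 29.0 and 452 CPM and was not called (edgeR adjusted p = 0.106).

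Btg2, an antiproliferative immediate early gene, had its 3 largest calls after NSAIDs. It went from 20.2, 83.2, 33.2 and 15.2 CPM to 176, 803 and 1763 CPM after sudoxicam (4.59 ± 0.89, edgeR adjusted p = 0.0064). After diclofenac it went from 43.8, 31.2, 43.9 and 15.5 CPM to 442, 771 and 136 CPM (3.74 ± 0.60, edgeR adjusted p = 0.00348). After lumiracoxib it went from 27.3, 79.4, 31.5 and 45.0 CPM to 207, 1279 and 228 CPM (3.64 ± 0.72, edgeR adjusted p = 0.0139). In all 3, every treated animal exceeded every vehicle animal, with a spread among treated animals of several fold. The background of genes called higher was 18.6%, 15.6% and 10.5% in that order. The lumiracoxib call was lost with RIN as a covariate (edgeR adjusted p = 0.0961).

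In these NSAID livers all neutrophil markers tested were higher: 7 of 7 after sudoxicam, 6 of 6 after diclofenac and 8 of 8 after lumiracoxib. Markers low in vehicle can pass the filter on low counts through the treated animals alone, so these counts are partly set by the filter. The summed level of the markers ran from 7.14 to 13.1 CPM in vehicle and 5451 to 15263 CPM in sudoxicam animals, from 6.76 to 11.7 and 2785 to 6756 CPM for diclofenac, and from 6.77 to 12.0 and 4376 to 11890 CPM for lumiracoxib. Fkbp5, a glucocorticoid-responsive gene, was called higher in each of these and after naproxen, with log2 fold changes of 1.80, 1.64, 0.92 and 1.12. Its list held 10 genes, of which 5 were higher after sudoxicam, 3 after lumiracoxib and 5 after naproxen, with 0 lower in each. For diclofenac 6 of the 10 were higher and 1 lower. Of the immediate early genes, 5 of 12 were higher after sudoxicam, among them Fos (2.67, edgeR adjusted p = 0.033), 2 of 12 after lumiracoxib, and 2 higher and 1 lower of 13 after diclofenac. After naproxen 2 of 14 were lower, with a list median of -0.74. The part of these cells and genes in the Btg2 values was not tested.

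Btg2 fell after panadiplon, methimazole and ticlopidine. With panadiplon it went from 82.7, 87.8, 145 and 262 CPM to 15.6, 35.7, 58.4 and 35.0 CPM (-1.99 ± 0.50, edgeR adjusted p = 0.0404), and with the thyroid drug methimazole from 73.0, 171, 78.7 and 43.2 CPM to 16.5, 25.8, 29.4 and 23.3 CPM (-1.94 ± 0.42, edgeR adjusted p = 0.0152). With ticlopidine it went from 77.0, 51.7, 45.6 and 68.6 CPM to 20.7, 20.9, 12.5 and 12.3 CPM (-1.87 ± 0.24, edgeR adjusted p = 0.000341). Groups were apart in all 3, beside a background of 5.59%, 11.9% and 25.1% of genes called lower. The panadiplon call was lost without any 1 vehicle animal or without treated animal 1, 2 or 4 (adjusted p = 0.053 to 0.0882), and without the filter on low counts (0.0840). Macrophage markers were lower in the same livers for methimazole (11 of 11, summed 668 to 842 CPM against 278 to 537 CPM) and ticlopidine (11 of 11, 593 to 687 against 257 to 378 CPM), and 1 of 11 for panadiplon (533 to 849 against 451 to 624 CPM).

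Among the death effectors, Fas was called higher in 11 comparisons. After the antidepressant fluoxetine it went from 5.16, 6.02, 6.12 and 5.56 CPM to 19.3, 8.39 and 22.4 CPM (1.55 ± 0.30, edgeR adjusted p = 0.00433). After the NSAID nabumetone it went from 6.19, 5.21, 6.95 and 5.46 CPM to 11.3, 11.3, 14.3 and 15.1 CPM (1.13 ± 0.15, edgeR adjusted p = 0.0242). Groups were apart in both, beside a background of 23.7% and 0.672% of genes called higher. The nabumetone call was lost without any 1 vehicle animal or without treated animal 2, 3 or 4 (adjusted p = 0.0616 to 0.13), and with RIN as a covariate (0.0553). Neutrophil markers were higher in the same livers, 6 of 6 after fluoxetine (5.89 to 8.41 CPM against 527 to 6819 CPM) and 5 of 6 after nabumetone (6.73 to 9.60 CPM against 300.0 to 12054.5 CPM). These counts too are partly set by the filter on low counts, which such markers can pass through the treated animals alone.

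Fas fell after almorexant, from 15.9, 15.5, 15.2 and 15.7 CPM to 5.32, 9.91, 10.1 and 8.13 CPM (-0.89 ± 0.21, edgeR adjusted p = 0.0102), and after chlorpropamide from 6.05, 8.65, 6.30 and 5.81 CPM to 3.98, 4.16, 4.44 and 4.66 CPM (-0.64 ± 0.16, edgeR adjusted p = 0.0215). The background of genes called lower was 17.1% for almorexant and 7.87% for chlorpropamide. The chlorpropamide call was lost without treated animal 2 (adjusted p = 0.0541) and in 1 fit across all animals (0.207), and the almorexant call with RIN as a covariate (0.0677). Macrophage markers fell with it, 10 of 11 in both treatments. Their summed level was 602 to 857 CPM in the vehicle animals and 105 to 248 CPM in the almorexant animals, and 556 to 839 CPM against 330 to 506 CPM for chlorpropamide. Almorexant also lowered 6 of 6 lymphocyte markers (21.9 to 34.5 CPM against 1.71 to 5.61 CPM). Fas is expressed on lymphocytes and macrophages as well as hepatocytes, and the part of these cells in its values was not tested.

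Bax had the fewest calls of the members, 6 in all. Apart from azithromycin, carbamazepine and ritonavir, it was called higher after fluoxetine (0.75, groups overlapping), a call lost without vehicle animal 1, 2 or 3 or treated animal 1 or 3 (edgeR adjusted p up to 0.0848). It was called lower after nitrofurantoin and after the proton pump inhibitor esomeprazole, from 14.7, 15.1, 14.3 and 15.8 CPM to 13.2, 9.50, 10.8 and 10.5 CPM (-0.45 ± 0.12, edgeR adjusted p = 0.0481). The esomeprazole groups did not overlap, beside a background of 2.91% of genes called lower, but the call was lost without any 1 vehicle animal or without treated animal 2, 3 or 4 (adjusted p = 0.0859 to 0.121), and under 6 of the other alternatives, up to 0.991 with RIN as a covariate.

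Phlda3 was called lower in 12 comparisons. After flutamide, an androgen receptor blocker, it fell from 28.6, 30.7, 22.0 and 21.4 CPM to 4.19, 5.52, 4.79 and 7.20 CPM (-2.24 ± 0.19, edgeR adjusted p = 2.13e-05). After the sulfonylurea chlorpropamide it fell from 34.0, 30.1, 24.3 and 18.2 CPM to 13.5, 9.17, 9.01 and 9.09 CPM (-1.39 ± 0.21, edgeR adjusted p = 0.00429), and after the antidepressant zimelidine from 19.7, 18.0, 16.9 and 17.0 CPM to 7.28, 8.02, 6.95 and 5.64 CPM (-1.36 ± 0.12, edgeR adjusted p = 0.000308). These 3 calls were free of overlap and kept without any single animal, beside a background of 24.6%, 7.87% and 6.63% of genes called lower. With RIN as a covariate the flutamide and zimelidine calls were lost (edgeR adjusted p = 0.117 and 0.209). Paroxetine (-1.29), nefazodone (-1.27) and omeprazole (-0.91) were further calls lower, and each was lost when one of several animals was left out. These were vehicle animal 3 or treated animal 2 or 3 for paroxetine (edgeR adjusted p up to 0.0753), vehicle animal 1, 2 or 4 or treated animal 2 for nefazodone (up to 0.0764), and vehicle animal 2, 3 or 4 or treated animal 2 or 3 for omeprazole (up to 0.0852).

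Sesn1 rose in 3 comparisons and fell in 7. After atorvastatin, an inhibitor of cholesterol synthesis, it went from 17.4, 22.0, 19.7 and 22.9 CPM to 56.1, 48.2, 72.8 and 31.1 CPM (1.35 ± 0.23, edgeR adjusted p = 0.0115). It rose less after zimelidine, from 22.7, 25.03, 27.3 and 19.1 CPM to 33.4, 48.9, 29.7 and 40.4 CPM (0.70 ± 0.16, edgeR adjusted p = 0.0227), and after the antiarrhythmic amiodarone, from 19.8, 24.0, 22.9 and 20.0 CPM to 32.6, 29.6, 27.6 and 36.9 CPM (0.54 ± 0.11, edgeR adjusted p = 0.0172). No groups overlapped in these 3, and the background of genes called higher was 8.44%, 7.11% and 3.2%. The zimelidine call was lost without vehicle animal 1 or 4 or treated animal 4 (adjusted p = 0.0559 to 0.0627) and reversed in sign with RIN as a covariate (-0.17, adjusted p = 0.88). The amiodarone call was lost without treated animal 1 (0.0521) and in 1 fit across all animals (0.251).

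The falls of Sesn1 were largest after almorexant and fluoxetine. After almorexant it went from 20.7, 29.9, 38.7 and 41.8 CPM to 14.1, 14.9, 12.3 and 18.2 CPM (-1.14 ± 0.23, edgeR adjusted p = 0.00612), and after fluoxetine from 27.2, 21.9, 21.9 and 22.6 CPM to 8.31, 15.1 and 9.54 CPM (-1.09 ± 0.21, edgeR adjusted p = 0.00388). Neither overlapped with vehicle, and both calls were kept without any single animal. The background of genes called lower was 17.1% and 23.4%. Of the 4 almorexant vehicle libraries, 3 had a RIN under 7. In the fluoxetine animals Sesn1 fell while Fas, Btg2, Ccng1 and Bax were called higher. The Ccng1 call there was lost without any 1 vehicle animal or without treated animal 1 or 3 (edgeR adjusted p = 0.0545 to 0.105), and it and the Bax call were lost with RIN as a covariate (0.103 and 0.133).

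The 4 macrolides, picked for this description after their values were seen, differed in how many members were called, though their differences were not tested. Azithromycin called 6 members higher. Clarithromycin called Mdm2 higher (1.25, background 10.1%) and Ccng1 (-0.68) and Sesn1 (-0.44) lower, and telithromycin called Cdkn1a higher (3.09, background 3.92%). The telithromycin call was lost without vehicle animal 1, 3 or 4 or treated animal 1 or 2 (edgeR adjusted p up to 0.0842). Erythromycin called 0 members by edgeR (1 at an unadjusted p under 0.05, 0 by DESeq2), as it called 0% of all genes. All were given at 600 mg/kg, azithromycin and telithromycin to Sprague Dawley and the others to Han Wistar rats, and clarithromycin and erythromycin shared a vehicle group.

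Other p53 targets and the regulators of p53 were followed as fixed lists. Of 29 further targets tested, 153 of 2612 tests (5.86%) were called higher and 154 (5.90%) lower, which is near the background. Of 10 regulators, 58 of 877 tests (6.61%) were higher and 20 (2.28%) lower. After azithromycin 16 of 28 other targets were higher and 5 lower, and of 9 regulators 4 were higher and 1 lower, beside 24.8% of all genes higher and 22.3% lower.

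Among these lists the genes called most often were Steap3 (2 higher and 28 lower of 97 comparisons), Atr (19 and 1), Sesn2 (2 and 18), Ddb2 (17 lower of 96), Ddit4 (16 and 1 of 96) and Ei24 (16 lower of 97). Atr, the kinase that signals replication stress, had a log2 fold change of 0.73 after azithromycin (edgeR adjusted p = 0.0021). Ddb2, which recognises ultraviolet damage in DNA, had -1.36 (edgeR adjusted p = 0.000278) and Sesn2, a relative of Sesn1, had -0.88 (edgeR adjusted p = 0.00173) in the same livers in which 6 members rose. Ei24 had -0.45 (edgeR adjusted p = 0.0345). Steap3 (-0.54) and Ddit4 (1.06) were not called there.

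The members followed each other only loosely across treatments. Over the 97 comparisons (96 for pairs with Fas or Bax), which share vehicle animals in part, the highest Pearson r of log2 fold changes among the 28 pairs was 0.66, for Ccng1 and Btg2. Next came Cdkn1a with Btg2 at 0.58 and with Ccng1 at 0.50, and Mdm2 with Bax at 0.49. Mdm2 ran against Sesn1 (-0.43) and Cdkn1a (-0.35). Among 310 vehicle animals, as deviations from their group means, Mdm2 also ran against Cdkn1a (-0.38) and Sesn1 (-0.35), whereas Ccng1 and Btg2 were unrelated (-0.01).

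For each member, the genes outside the list with the most similar pattern were found by the Pearson r of log2 fold changes over the same comparisons. The values are the highest among 10880 genes and are given as a description. Mdm2 was most like Sqstm1, an autophagy receptor (r = 0.89), Slc25a37 (0.84) and Txnl1 (0.84). In ritonavir, carbamazepine and NB-360 livers, where Mdm2 rose by 2.12, 1.61 and 2.06, Sqstm1 had log2 fold changes of 2.27, 1.65 and 1.36. Btg2 was most like Mapkapk2 (0.82), Ets2 (0.82) and Sav1 (0.81), and Cdkn1a most like Rnf8 (0.75), Arntl (0.74) and Slc16a1 (0.69).

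The other members had weaker likenesses. Ccng1 was most like Myl12a (0.73), Emc3 (0.72) and Ddx24 (0.70), and Bax most like Arhgdia (0.71), Fbl (0.71) and Trip6 (0.70). Fas was most like Cap1 (0.67), the interferon gamma receptor chain Ifngr2 (0.66) and Gbp5 (0.62). Sesn1 was most like Eif4ebp3 (0.62), Pbxip1 (0.58) and the bile acid synthesis enzyme Cyp7a1 (0.56). Phlda3 stood furthest from any other gene, with 0.53 for Clic5, 0.53 for Csrp1 and 0.52 for Coro1c.

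**Figure D5:**
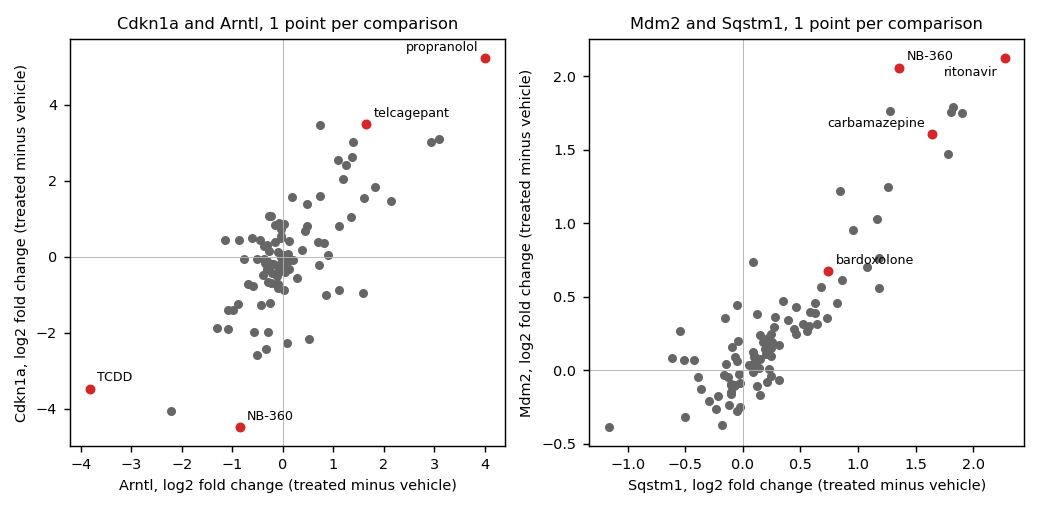
Log2 fold change (treated minus vehicle) of Cdkn1a against Arntl on the left and of Mdm2 against Sqstm1 on the right, 1 point per comparison, with treatments named in the text in red. Propranolol and TCDD lie at opposite ends on the left (r = 0.74), and ritonavir, NB-360 and carbamazepine lie at the upper right on the right (r = 0.89).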

How the data were processed

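Liver RNA was extracted with MagMAX kits and made into TruSeq Stranded mRNA libraries, per the labels' protocols. The authors deposited estimated counts per Ensembl gene and per RefSeq gene, and FPKM values, per the file headers. The build was Rnor_6.0, per the submitters' processing notes, and the aligner and quantifier are not given in the sources used here. Of the non-zero deposited expected counts, 87.49% were whole numbers in the Ensembl table. Counts of an animal's libraries within a batch were summed and rounded, and FPKM, which corrects for length, was used only to compare levels between genes. Depth was 0.312 M to 45.5 M counts per library (M, mega).

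Each comparison was fitted alone in R 4.3.3 with edgeR 4.0.16 (filterByExpr, TMM scaling, robust quasi-likelihood dispersions), with sex as a covariate for bardoxolone and pyrazole, and adjusted over all genes tested by Benjamini-Hochberg. CPM used TMM-scaled library sizes. The SE of a log2 fold change is its size divided by the square root of the F statistic, and a 95% interval is 1.96 SE either side. PCN was not tested for Bax and Fas, which failed the filter on low counts there. Metformin was dosed 3 days and its vehicle 4.

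The members and lists were chosen with earlier results of these data known. For each member, the 3 largest changes in each direction among calls without overlap and with at least 1 CPM in the higher group are named, and the 6 comparisons with most members called (ties at 5 broken by the larger summed absolute log2 fold change of the members called) are described member by member. Of the lists of further p53 targets and regulators the 6 genes called most often are named, and for likeness the 3 genes with the highest r over at least 90 comparisons. Alternatives were RLE scaling, DESeq2 1.42.0, no filter, the RefSeq table, a minimum log2 fold change of 1, 1 fit across all animals (limma 3.58.1, voom), RIN as a covariate, removal of libraries with RIN under 7, and leaving out each animal. The scripts were tested on simulated data.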

Additional observations from a re-analysis of the deposited data

Results flagged for a closer look

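In 8 of the 77 groups checked, 1 animal lay far from the others of its group by Dixon's criterion for small groups, which by chance marks about 1 group in 20. Among vehicle animals, Cdkn1a was 2.29 CPM in 1 animal of the propranolol comparison, where the other animals had 0.995 to 1.20 CPM. Ccng1 was 30.5 CPM in 1 vehicle animal of the azithromycin comparison (others 27.8 to 28.0 CPM) and 29.5 CPM in 1 of the Cmpd Z comparison (others 24.4 to 25.1 CPM). Sesn1 was 27.2 CPM in 1 vehicle animal of the fluoxetine comparison (others 21.9 to 22.6 CPM). Among treated animals, Cdkn1a was 90.1 CPM in 1 telcagepant animal (others 15.4 to 23.2 CPM), and Ccng1 was 25.7 CPM in 1 clarithromycin animal (others 20.3 to 20.8 CPM). Fas was 35.8 CPM in 1 azithromycin animal (others 28.3 to 29.0 CPM), and Phlda3 was 13.5 CPM in 1 chlorpropamide animal (others 9.01 to 9.17 CPM). The telcagepant animal, the azithromycin animal with high Fas and the fluoxetine vehicle animal lay away from the group they were compared with, and the others lay towards it.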

How the results depend on the processing

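The reported 66 calls higher, 42 lower, 7 comparisons with at least 3 members higher and 4 with at least 3 lower became 38, 23, 3 and 0 with a minimum log2 fold change of 1, and 31, 19, 3 and 2 with RIN as a covariate. In 1 fit across all animals 25 calls were lower and 2 comparisons had at least 3 lower. Counting only calls kept without any single animal left 33 higher, 21 lower, 3 and 2 comparisons; naproxen, with 2 treated animals, was not run and counts as not kept. Under RLE scaling, DESeq2, no filter, the RefSeq table and removal of low RIN the counts stayed within 1.5 times, and likewise without the PCN study, an alternative chosen after seeing the data. The strain difference was called for 5 members under all alternatives but the minimum fold change, which left 2. Of 1150 alternative values for 76 named results, 982 kept direction and call, 162 lost the call, 5 gained one and 1 reversed (Sesn1 after zimelidine, -0.17 with RIN as a covariate); the cause was not tested. No paired analysis was possible because the replicate numbers follow accession order only. Depth limits chiefly the PCN study and, at a few CPM, Fas and low Cdkn1a values.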

Other observations

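For almorexant, repeat libraries of 3 of the treated animals and 1 of the vehicle animals were sequenced in another batch, which with 1 vehicle animal allows no test. There Mdm2 was at 23.4 CPM in the vehicle animal and at 91.6 ± 20.4 CPM (SD, n = 3) in the treated animals. Sesn1 was at 38.2 CPM against 11.5 ± 3.24 CPM, and Fas at 13.8 CPM against 6.18 ± 0.283 CPM. All 3 lay on the same side as in the tested batch, which held the same animals.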
